A study of Mus musculus with 59 samples.

Results

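Mouse embryoid bodies (EBs) that lost both RING1A and RING1B were compared with EBs that lost RING1A alone, using 4 of the 59 RNA-seq libraries of the series. Groups follow the names of the deposited files, because names and sample labels conflict in this line. The 2 libraries named mutant EB are also labelled as mutant EBs, of genotype ERT2-Cre;Ring1a-/-;Ring1bdelta/delta, with 4-OHT (4-hydroxytamoxifen, which turns on the Cre recombinase). The 2 libraries named control EB are labelled as mutant ESCs, of the same genotype and also with 4-OHT, so by label the contrast would be one of stage (EB against ESC) within treated cells. By name they are EBs of genotype ERT2-Cre;Ring1a-/-;Ring1bf/f without 4-OHT. The remaining 4 libraries of the line, used beside them, are named control ES (labelled control ESC, without 4-OHT) and named mutant ES (labelled control EB, without 4-OHT). All 8 libraries, controls included, come from cells that lack *Ring1a* constitutively, so the named controls are not wild type. The ESC line came from blastocysts, with CreERT2 expressed from the Rosa26 locus. ESCs grew on embryonic fibroblast feeders with LIF, SU5402, PD184352 and CHIR99021, and EBs formed over 2 days without these factors in low-attachment dishes. In this line the study began RING1B depletion together with EB formation, not before it. The sources used here do not say whether the 2 libraries of a group came from separate cultures, so *p*-values measure the spread between these libraries, which may be technical.

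Polycomb repressive complex 1 (PRC1) places ubiquitin on lysine 119 of histone H2A through its E3 ligase, RING1A or RING1B, which pairs with 1 of 6 PCGF proteins. Canonical PRC1 holds CBX and PHC proteins and binds the H3K27me3 mark of PRC2, while variant PRC1 holds RYBP or YAF2 and reaches CpG islands by other subunits, such as KDM2B with PCGF1. Together they hold genes of embryonic patterning and cell fate silent in pluripotent cells. Loss of both RING1 proteins therefore removes the shared ligase of every PRC1 form.

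Stage markers were read first, since they check the names. In the control libraries of another line of the series (*Pcgf1* line, 4 ESC and 5 EB libraries, names and labels alike), 10 of 10 ESC markers and 8 of 8 EB markers separated ESCs from EBs. The summed level of the 10 ESC markers was 346 to 357 TPM (transcripts per 1000000, a level per transcript length) in the libraries named control EB, inside the 192 to 472 TPM of the reference EBs and far under the 2480 to 4157 TPM of the reference ESCs. Those 2 libraries lay on the EB side for 10 of 10 ESC markers and 8 of 8 EB markers. Their summed EB markers, at 1278 to 1330 TPM, were slightly under the range of the reference EBs (1372 to 3552 TPM). The libraries named mutant ES held 2490 to 2597 TPM of ESC markers and 141 to 147 TPM of EB markers, against 56.8 to 116 TPM of EB markers in reference ESCs and 1372 to 3552 TPM in reference EBs. The stage markers thus sided with the file names rather than with the labels for both conflicting groups. The libraries named mutant EB sat between the stages, at 1275 to 1284 TPM of ESC markers and 643 to 658 TPM of EB markers. They lay on the EB side for 3 of 10 ESC markers (*Klf2*, *Tfcp2l1* and *Nr0b1*) and for 7 of 8 EB markers (all but *Sall2*).

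**Figure D1:**
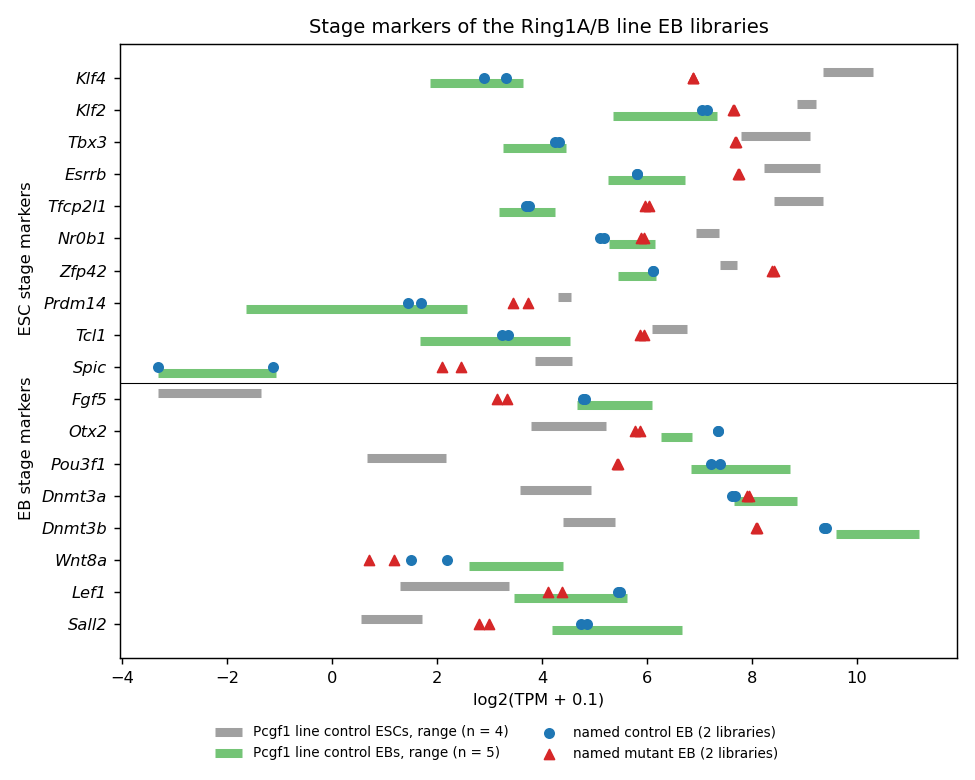
Levels of 10 ESC and 8 EB stage markers on the log2(TPM + 0.1) scale. Points are the 2 libraries named control EB, triangles the 2 named mutant EB, and bars the range over control ESCs (n = 4) and control EBs (n = 5) of the *Pcgf1* line. The points fall on the EB side for all 18 markers, and the triangles stand closer to ESCs for most ESC markers.

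The targeted genes gave a partial check. *Ring1*, which encodes RING1A, was at 0.973 to 3.41 TPM in the 8 libraries of the line, named controls included, under the 6.82 to 20 TPM of the *Pcgf1* line controls. *Rnf2*, which encodes RING1B, was at 63.2 and 62.9 TPM in the libraries named control EB and at 78.1 and 80.5 TPM in those named mutant EB. It was thus not lower but slightly higher (log2 fold change 0.33, SE 0.06, limma adjusted *p* = 0.0024), by an amount close to the all-gene median of 0.20, and it lost this call after median-of-ratios scaling (0.14, adjusted *p* = 0.107). The value covers the whole gene (mm9 chr1:153316536-153347953, minus strand) and does not tell whether its floxed part was lost, so it does not check the deletion.

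Of 20344 genes tested, 7447 (36.6%) were higher and 4048 (19.9%) were lower in the libraries named mutant EB (limma on log2(TPM + 0.1), adjusted *p* under 0.05, two-sided). The split depended on scaling, since the median over all genes stood at a log2 fold change of 0.20. It was 5876 higher and 5443 lower after median-of-ratios scaling (all-gene median 0.03) and 5570 and 5473 after quantile normalization. With a log2 fold change past 2 in either direction, 1406 genes (6.91%) were higher and 380 (1.87%) lower. Of the 380, 50 (13.2%) were microRNA or small nucleolar RNA genes, against 29 (2.06%) of the 1406, and the 12 lowest genes were all of this kind. Single short genes are given as values in the closing section alone. These are bulk libraries, in which fewer cells of a type and less RNA per cell cannot be told apart.

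The 12 highest genes under the naming rule included *Hoxa10*, *Hoxa11*, *Pitx1*, *Igf2os* and the preimplantation genes *Pramel6* and *Pramel7*. *Pramel6* was at 0.391 and 0.129 TPM in the libraries named control EB and at 37.0 and 33.1 TPM in those named mutant EB. *Tnnt3*, a troponin of fast skeletal muscle, was at 0.403 and 0 TPM against 25.9 and 23.3 TPM. *Aspa*, aspartoacylase, was listed at 0 in both libraries named control EB and stood at 5.75 and 5.89 TPM in those named mutant EB. The naming rule takes only genes whose groups do not overlap, so the lack of overlap in these 3 genes follows from the rule. The 2 named control libraries differed between themselves for *Pramel6* and *Tnnt3* at these low levels.

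**Figure D2:**
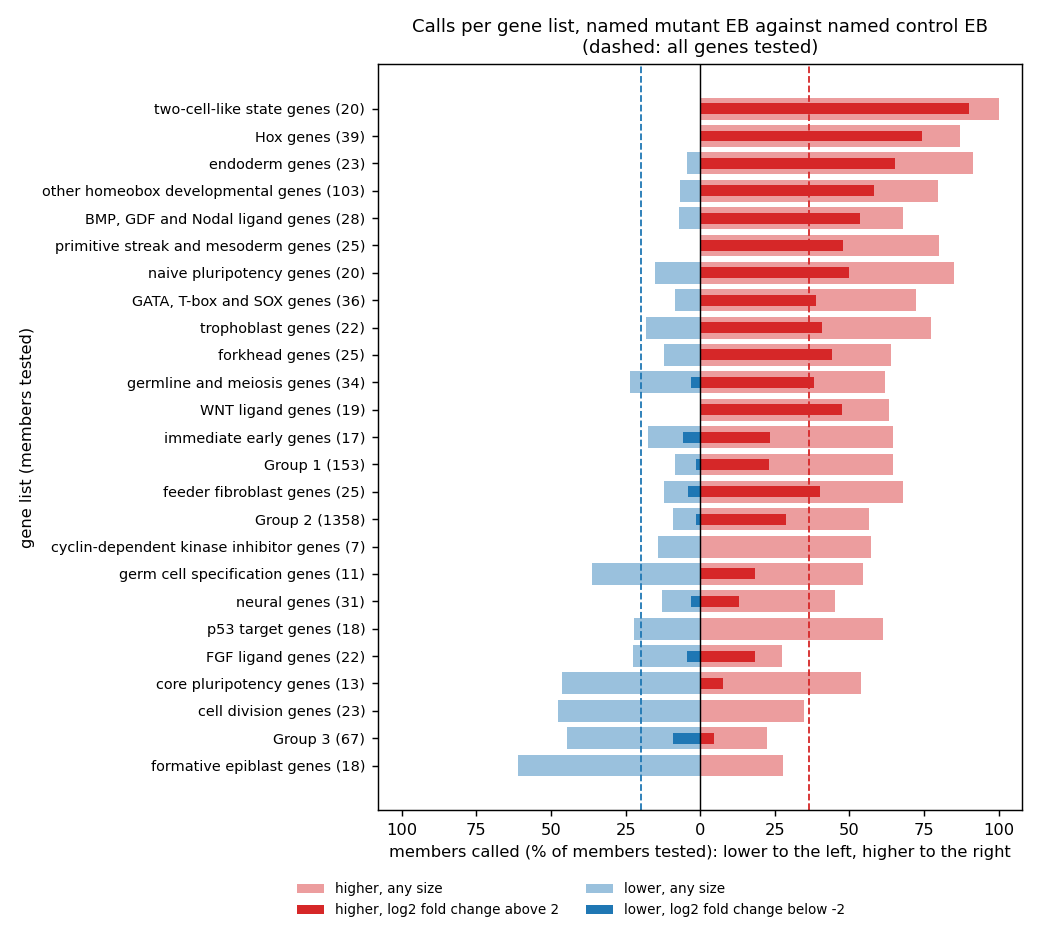
Share of each gene list called higher (right) or lower (left) in the libraries named mutant EB against those named control EB, in percent of members tested. Narrow bars are calls with a log2 fold change past 2 and dashed lines the shares over all genes tested (36.6% higher, 19.9% lower); 2-cell-like, endoderm and Hox genes lie far to the right of the dashed line.

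The best known PRC1 targets are the *Hox* genes, which set position along the body axis and stand in 4 clusters. Of 39 tested, 34 were higher and 0 lower (87.2% higher against 36.6% of all genes), 29 of them with a log2 fold change above 2, and their median log2 fold change was 3.23 against 0.20 for all genes. Their summed level was 34.2 and 32.2 TPM in the libraries named control EB and 245 and 247 TPM in those named mutant EB. The 5 not called were *Hoxb1*, *Hoxb2*, *Hoxb3*, *Hoxb5* and *Hoxb6*, all of the *HoxB* cluster. *Hoxb1*, an early hindbrain gene, was at 1.52 and 1.82 TPM against 1.03 and 1.22 TPM (adjusted *p* = 0.213).

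*Hoxa10*, a posterior gene, had the largest log2 fold change of the list. It was at 0.0959 and 0.0633 TPM in the libraries named control EB and at 20.1 and 20.8 TPM in those named mutant EB. The log2 fold change was 6.84 (SE 0.26, adjusted *p* = 9.53e-07). Its level in the libraries named mutant ES was lower, at 6.73 and 6.12 TPM. *Hoxd13*, the last gene of its cluster, was already detected in the named controls, at 2.61 and 2.08 TPM, and was at 40.5 and 40.4 TPM in the libraries named mutant EB (log2 fold change 4.06, SE 0.12). *Hoxc9* was listed at 0 in both named controls and at 4.31 and 4.90 TPM in those named mutant EB.

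Promoters of 3 genes that stood far apart between the groups are shown because they differ widely in CG content, the feature that KDM2B of variant PRC1 binds when unmethylated. Each is the RefSeq window (GRCm38.p6) of 250 bases before to 50 after the gene start, placed in mm9 by its single exact match, 5′ to 3′ on the gene's strand, with CG in capitals. *Klf4* (chr4:55545298-55545597, minus strand) holds 40 CG, and 5.77% of promoters hold as many or more. *Hoxa10* (chr6:52190804-52191103, minus strand) holds 12, and 40.1% hold as few or fewer. *Zscan4c* (chr7:11590844-11591143, plus strand) holds 4, and 19.1% hold as few or fewer.
Klf4: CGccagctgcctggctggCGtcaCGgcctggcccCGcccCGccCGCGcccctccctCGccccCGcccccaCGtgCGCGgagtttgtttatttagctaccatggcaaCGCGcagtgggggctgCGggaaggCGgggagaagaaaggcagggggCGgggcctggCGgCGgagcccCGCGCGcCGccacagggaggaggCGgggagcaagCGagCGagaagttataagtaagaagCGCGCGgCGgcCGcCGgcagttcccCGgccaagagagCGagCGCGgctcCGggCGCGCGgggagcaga
Hoxa10: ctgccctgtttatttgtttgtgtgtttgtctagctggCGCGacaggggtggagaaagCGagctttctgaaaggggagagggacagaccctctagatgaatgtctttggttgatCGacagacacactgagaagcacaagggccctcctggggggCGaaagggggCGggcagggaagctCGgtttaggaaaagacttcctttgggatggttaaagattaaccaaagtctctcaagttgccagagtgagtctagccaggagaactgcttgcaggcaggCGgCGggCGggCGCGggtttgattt
Zscan4c: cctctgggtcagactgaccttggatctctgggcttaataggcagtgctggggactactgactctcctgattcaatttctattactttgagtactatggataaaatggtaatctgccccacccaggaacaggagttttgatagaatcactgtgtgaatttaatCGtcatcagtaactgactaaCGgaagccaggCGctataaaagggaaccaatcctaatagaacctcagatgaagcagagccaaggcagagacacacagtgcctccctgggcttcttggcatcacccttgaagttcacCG

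Other homeobox genes of development behaved much like *Hox* genes. Of 103 tested, 82 (79.6%) were higher and 7 (6.8%) lower, against 36.6% and 19.9% of all genes, with 60 above a log2 fold change of 2 and a median of 2.30. *Pitx1*, a hindlimb and pituitary factor (mm9 chr13:55926415-55937553, minus strand), was at 0.369 and 0.244 TPM in the libraries named control EB and at 23.1 and 21.7 TPM in those named mutant EB. Its log2 fold change was 5.81 (SE 0.18, adjusted *p* = 4.87e-07). *Six3*, a forebrain and eye factor, was at 0.0409 and 0.0540 TPM against 5.04 and 4.69 TPM. The members that were lower include factors of the postimplantation epiblast. *Pou3f1* was at 169 and 149 TPM in the libraries named control EB and at 43.1 and 43.6 TPM in those named mutant EB, a log2 fold change of -1.87 (SE 0.10). *Otx2*, needed for the exit from naive pluripotency and for the forebrain, was at 164 TPM in both libraries named control EB and at 58.2 and 54.3 TPM in those named mutant EB. It was also lower in the libraries named mutant ES (10.05 and 10.41 TPM) than in those named control ES (43.01 and 42.59 TPM). The ESC log2 fold change was -2.05 for *Otx2*, against -1.54 in EBs, and 2.09 for *Pou3f1*.

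Forkhead genes (16 of 25 or 64% higher, 3 or 12% lower, median 1.64) followed the same direction. GATA, T-box and SOX genes did so too (26 of 36 or 72.2% higher, 3 or 8.33% lower, median 1.76), against 36.6% and 19.9% of all genes. After quantile normalization the GATA, T-box and SOX list had 17 higher and 4 lower (median 1.17). The forkhead list then had 13 higher and 4 lower (median 1.12). Neural genes did so less (14 of 31 higher, or 45.2%, and 4 lower, median 0.49), with the proneural factor *Atoh1* at 0 and 0.0951 TPM against 2.87 and 2.92 TPM and *Zic2* lower, at 90.6 and 81.9 TPM against 38.1 and 40.2 TPM. Whether the lists differ from each other was not tested.

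Endoderm genes had a large share of higher members. Of 23 tested, 21 (91.3%) were higher and 1 lower, against 36.6% and 19.9% of all genes, 15 above a log2 fold change of 2, with a median of 2.67. *Gata6*, the factor that directs primitive endoderm in the blastocyst, was at 2.17 and 1.56 TPM in the libraries named control EB and at 67.5 and 68.2 TPM in those named mutant EB (log2 fold change 5.13, SE 0.20, adjusted *p* = 1.15e-06). *Gata4*, its close relative, was at 3.82 and 3.87 TPM against 33.4 and 32.9 TPM. *Sox7*, a marker of parietal and primitive endoderm, was at 0.184 and 0.304 TPM against 7.12 and 7.41 TPM. 2 genes of basement membrane were named after their values were seen. *Lama1*, a laminin chain, was at 2.87 and 2.63 TPM against 30.6 and 30.5 TPM, and *Col4a1*, a type IV collagen chain, at 25.2 and 24.7 TPM against 148 and 152 TPM. *Cubn*, an endocytic receptor of visceral endoderm that was named after its values were seen, was at 1.48 and 1.67 TPM against 13.3 and 14.5 TPM. The member that was lower was *Apoe*, an apolipoprotein, at 792 and 720 TPM against 540 and 587 TPM (log2 fold change -0.42).

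Of 25 primitive streak and mesoderm genes, 20 (80%) were higher and 0 lower, against 36.6% and 19.9% of all genes, with a median of 2.00. *Pdgfra*, a growth factor receptor of mesoderm and primitive endoderm (mm9 chr5:75548316-75594229, plus strand), was at 0.604 and 0.502 TPM in the libraries named control EB and at 24.6 and 24.2 TPM in those named mutant EB (log2 fold change 5.23, SE 0.19). *Hand1*, a factor of lateral mesoderm and trophoblast, was at 0.635 and 0.419 TPM against 22.5 and 22.1 TPM. *Tbx20*, a heart factor, was at 0.284 and 0.173 TPM against 12.9 and 12.7 TPM. Of 22 trophoblast genes, 17 (77.3%) were higher and 4 (18.2%) lower (median 1.68). *Hand1* above had the largest log2 fold change among those named, and *Esx1*, an X-linked placental homeobox gene, was at 4.90 and 3.85 TPM against 105 and 111 TPM. *Krt18*, a keratin, was lower, at 209 and 184 TPM against 78.7 and 64.2 TPM.

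Genes of secreted signals differed by family. BMP, GDF and Nodal ligand genes were higher in 19 of 28 (67.9%) and lower in 2 (7.14%), with a median of 2.12. Of all genes, 36.6% were higher and 19.9% lower. *Bmp4*, the ligand that patterns the early mesoderm, was at 4.84 and 3.99 TPM in the libraries named control EB against 33.5 and 36.2 TPM in those named mutant EB, and *Lefty2*, a Nodal antagonist, at 125 TPM in both against 529 and 562 TPM. WNT ligand genes were higher in 12 of 19 (63.2%) and lower in 0, among them *Wnt7b* at 0.273 and 0.405 TPM against 4.97 and 5.29 TPM. FGF ligand genes were split, with 6 of 22 higher and 5 lower (27.3% higher, under the share of all genes), and *Fgf5*, a postimplantation epiblast ligand, was at 28 and 27.5 TPM against 8.71 and 9.91 TPM.

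Feeder fibroblast genes moved in the same direction as these lists. Of 25 tested, 17 (68%) were higher and 3 (12%) lower, against 36.6% and 19.9% of all genes. The summed level of 10 feeder markers was 25.8 to 27.3 TPM in the libraries named control EB, 66.4 to 67.5 in those named mutant EB, 166 to 168 in those named control ES and 409 to 434 in those named mutant ES. Only 5 of the 10 separated the reference ESCs from the reference EBs. Of the sum, *Thy1* made up 15.5 and 17.4 TPM in the libraries named control EB and 22.8 and 23.4 TPM in those named mutant EB. It ran against a feeder origin in the references, at 2.62 to 6.73 TPM in ESCs and 16.4 to 26.7 TPM in EBs. *Col1a1*, a fibrillar collagen, was at 5.77 and 5.50 TPM in the libraries named control EB and at 29.3 and 28.9 in those named mutant EB. *Col1a2* (1.73 and 1.74 against 8.35 and 8.84 TPM), *Col3a1* (0.623 and 0.286 against 3.49 and 3.40 TPM) and *Postn* (0.0457 and 0 against 1.08 and 0.319 TPM) stood higher with it, while *Lox*, a collagen crosslinking enzyme, was at 0.947 and 0.766 against 0.722 and 0.554 TPM. *Lum*, *Fap* and *Dcn* were under 1 TPM in the 4 EB libraries and also in the reference ESCs, which grew on feeders, so they tell little here. The feeders' part in the mesoderm and endoderm results was not tested.

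Genes of naive pluripotency, the state of cultured ESCs that EBs leave behind, were higher in the libraries named mutant EB. Of 20 tested, 17 (85%) were higher and 3 (15%) lower (*Stat3*, *Tet2* and *Fgf4*), against 36.6% and 19.9% of all genes, with a median of 1.99. In the ESC-named libraries the same list had 3 higher and 11 lower with a median of -0.27, against 28.6% higher and 14.6% lower of all genes there. *Zfp42* (REX1) was at 69.3 and 69.5 TPM in the libraries named control EB and at 333 and 344 TPM in those named mutant EB (log2 fold change 2.28, SE 0.03, adjusted *p* = 1.5e-08). *Esrrb*, a nuclear receptor of the naive network, was at 55.9 and 55.8 TPM against 217 and 213 TPM, and *Nanog* at 145 and 149 TPM against 351 and 340 TPM. For all 3 the levels of the libraries named mutant EB lay between those named control EB and the ESC-named libraries, at 299 TPM or more for *Esrrb*, 383 or more for *Zfp42* and 630 or more for *Nanog*. The log2 fold change was higher in EBs than in ESCs for 18 of the 20 naive genes and lower for 0, against 18.9% and 15.8% of all genes. These calls are from the test of the difference between the 2 differences.

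Core pluripotency genes were split, with 7 of 13 (53.8%) higher and 6 (46.2%) lower, against 36.6% and 19.9% of all genes. Their median of 0.15 turned to -0.05 after median-of-ratios scaling. *Pou5f1*, the OCT4 gene, was at 1442 and 1425 TPM in the libraries named control EB and 1174 and 1235 TPM in those named mutant EB (log2 fold change -0.25, SE 0.04). Formative epiblast genes, which mark the stage that EBs enter next, were lower in 11 of 18 (61.1%) and higher in 5 (27.8%), with a median of -1.03. *Dnmt3b*, a de novo DNA methyltransferase, was at 685 and 667 TPM against 272 and 270 TPM (log2 fold change -1.32, SE 0.03). *Sall2*, a zinc finger factor, was at 29.0 and 26.7 TPM against 7.83 and 6.86 TPM. The members that were higher were *Dnmt3l*, *Tcf15*, *Etv4*, *Dnmt3a* and *Cdh2*.

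The study sorted RING1B target genes by how RING1B binding changed from ESCs to EBs in control cells, into Group 1 (binding rose), Group 2 (unchanged) and Group 3 (fell). These lists were not chosen on the expression in these libraries. Library medians below cover all members with a listed TPM (160, 1501 and 72 in Groups 1 to 3), those at 0 in all 8 libraries included. Calls and median log2 fold changes cover the members tested. Of all genes tested, 36.6% were higher and 19.9% lower. Of 153 Group 1 genes tested, 99 (64.7%) were higher and 13 (8.50%) lower, with a median of 1.15, and the library medians were 2.69 and 2.67 TPM in the libraries named control EB against 6.16 and 6.26 TPM in those named mutant EB. Of 1358 Group 2 genes, 767 (56.5%) were higher and 122 (8.98%) lower, with a median of 0.98, and the library medians were 0.543 and 0.519 TPM against 1.99 and 1.97 TPM. Of 67 Group 3 genes, 15 (22.4%) were higher and 30 (44.8%) lower (9 and 36 after quantile normalization), with a median of -0.32, and the library medians were 9.76 and 9.01 TPM against 6.41 and 6.25 TPM. Group 2 genes had much the same median in the ESC-named libraries (1.05), while Group 1 was at 0.15 there and Group 3 at 1.13. Of Group 1 genes, 80 had a higher log2 fold change in EBs than in ESCs and 13 a lower one, sign included. In Group 3 these counts were 4 and 41, against 18.9% and 15.8% of all genes.

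**Figure D3:**
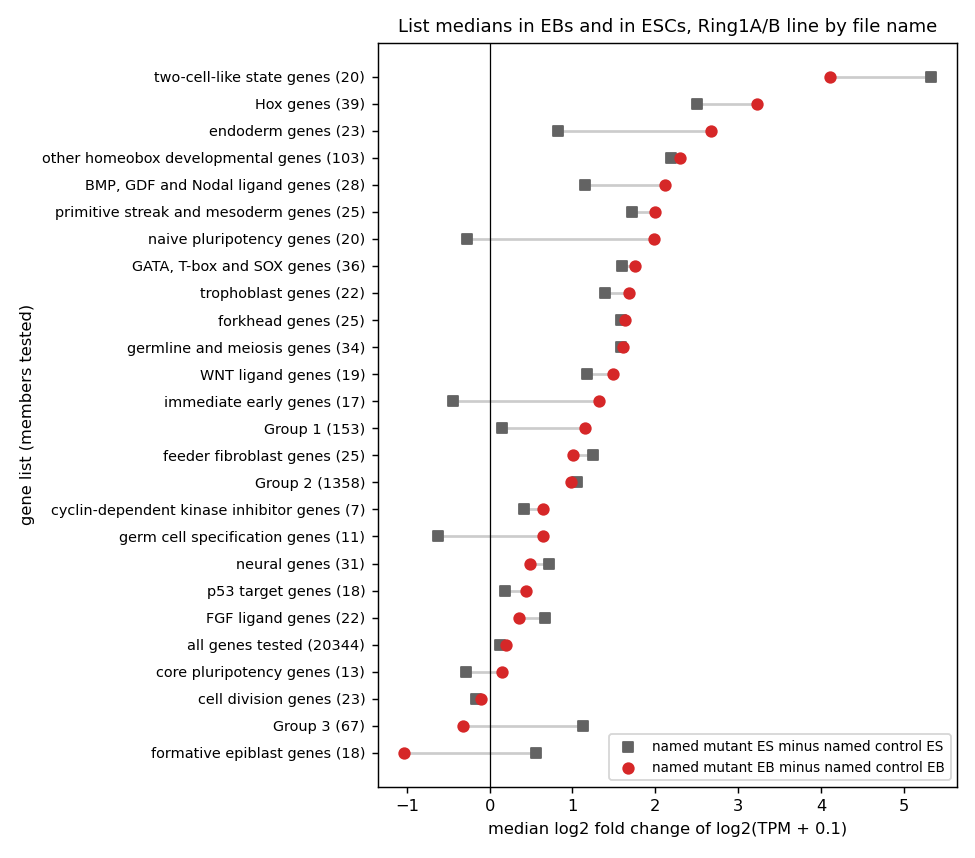
Median log2 fold change of each gene list on the log2(TPM + 0.1) scale, for libraries named mutant EB minus named control EB (circles) and named mutant ES minus named control ES (squares). Group 1, naive and immediate early genes have the circle well to the right of the square, while Group 3 and formative epiblast genes have it to the left.

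*Klf4* and *Tbx3*, factors of the naive network that the study names in Group 1, showed this pattern at single genes. *Klf4* was at 754 and 766 TPM in the libraries named control ES and at 9.90 and 7.38 TPM in those named control EB. In the libraries named mutant it was at 666 and 708 TPM (ES) and at 117 and 118 TPM (EB). The log2 fold change was 3.76 in EBs (SE 0.12, adjusted *p* = 4.19e-07) and -0.15 in ESCs (adjusted *p* = 0.357), and the difference between the 2 was 3.91 (adjusted *p* = 7.89e-06). *Tbx3* was at 19.8 and 19 TPM in the libraries named control EB and at 208 and 206 TPM in those named mutant EB, against 269 to 283 TPM in the 4 ESC-named libraries. Its log2 fold change in EBs was 3.41 (SE 0.04, adjusted *p* = 1.5e-08). *Pdgfa*, the ligand of the receptor above, was at 25.4 and 23.5 TPM against 101 and 90.2 TPM (log2 fold change 1.96, SE 0.07).

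*Sox4* and *Grhl2*, 2 factors named by the study for the opposite change of binding, were not called in EBs. *Sox4* was at 56.2 and 48.4 TPM in the libraries named control EB and at 46.1 and 43.6 TPM in those named mutant EB (adjusted *p* = 0.0683), and *Grhl2* at 19.2 and 17 against 18 and 17.4 TPM (adjusted *p* = 0.852). *Sox4* was called lower after median-of-ratios scaling (-0.41, adjusted *p* = 0.00496), after quantile normalization (-0.31, adjusted *p* = 0.0205), with the replicate block (adjusted *p* = 0.0435) and without named control EB library 2 (-0.33, adjusted *p* = 0.0336). Both were higher in the libraries named mutant ES than in those named control ES, *Sox4* by 0.88 and *Grhl2* by 0.78 on the log2 scale. Among Group 3 genes, *Cxcl12*, a chemokine, had the lowest log2 fold change (-3.41), at 16.9 and 17.2 TPM against 1.41 and 1.62 TPM. *Dll1*, a Notch ligand of presomitic mesoderm and neural progenitors (mm9 chr17:15504318-15513836, minus strand), was at 44.3 and 42.5 TPM against 5.74 and 6.63 TPM, near the 5.82 and 5.92 TPM of the libraries named control ES.

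**Figure D4:**
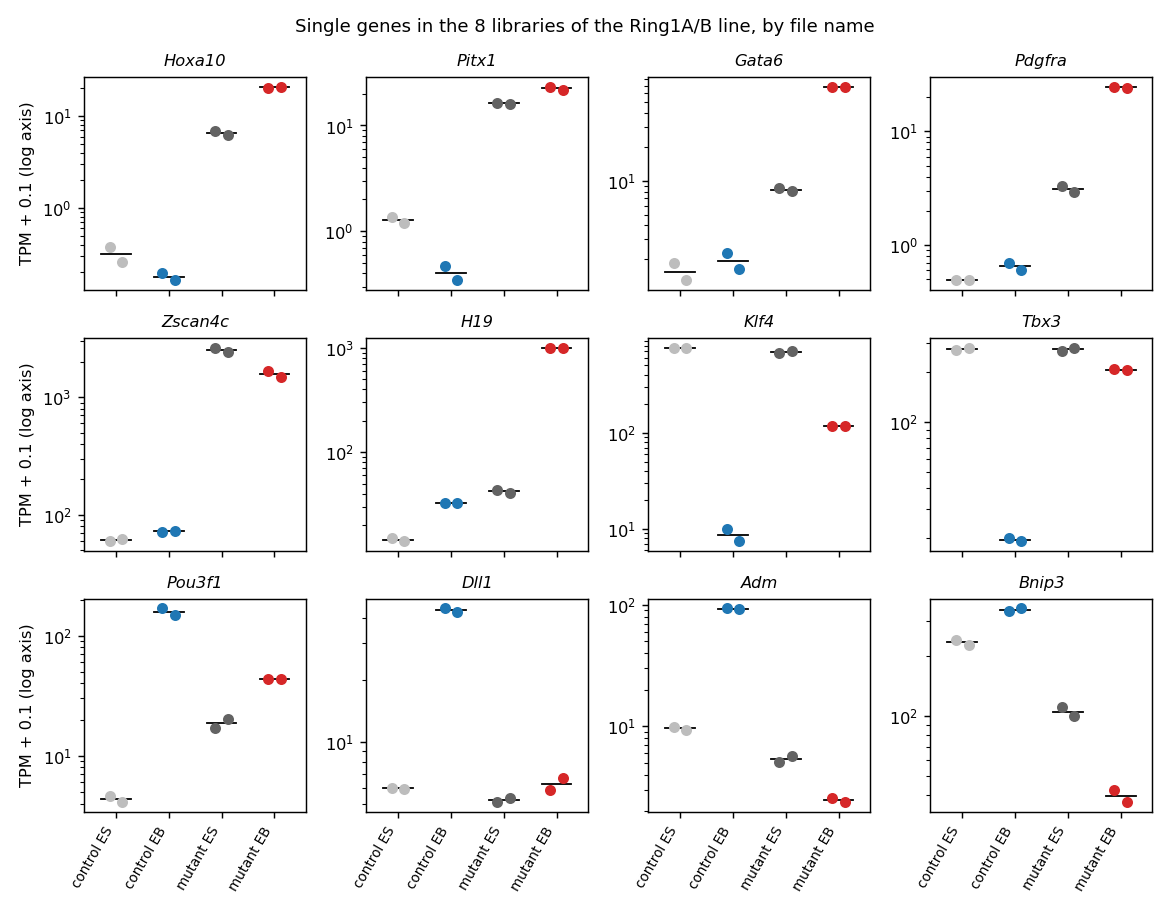
Levels of 12 genes in the 8 libraries of the line, as TPM + 0.1 on a log axis, by file name. Points are single libraries and lines the mean on the log scale; *Klf4* and *Tbx3* drop sharply between control ES and control EB and less so between mutant ES and mutant EB, and *Adm* and *Bnip3* are lowest in mutant EB.

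Genes of the 2-cell-like state, a rare state of ESC cultures that transcribes genes of the 2-cell embryo, were higher in 20 of 20 tested, 18 of them above a log2 fold change of 2, with a median of 4.11. *Zscan4c*, its usual marker, was at 71.4 and 72.5 TPM in the libraries named control EB and at 1659 and 1499 TPM in those named mutant EB (log2 fold change 4.45, SE 0.06, adjusted *p* = 1.5e-08). *Dux*, the factor that opens this programme, was at 4.24 and 2.65 TPM against 27.6 and 28.6 TPM. In the ESC-named libraries the difference was larger for 14 of the 20 genes and smaller for 2, and *Zscan4c* reached 2656 and 2441 TPM in those named mutant ES. Several members, *Zscan4c*, *Dux* and *Usp17lc* among them, belong to families of near-identical copies, and how reads were split between copies is uncertain. Of 34 germline and meiosis genes, 21 (61.8%) were higher and 8 (23.5%) lower (median 1.61), against 36.6% and 19.9% of all genes. *Tex101*, a surface glycoprotein of germ cells, was at 1.72 and 1.32 TPM against 17.7 and 12.8 TPM. *Sycp3*, of the synaptonemal complex, was lower, at 49.1 and 56.9 against 22 and 19.3 TPM.

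Genes of the Polycomb complexes themselves were split in direction. Of all genes tested, 36.6% were higher and 19.9% lower. These shares were 40% and 30% for PRC1 core genes and 60% and 40% for canonical PRC1 genes. They were 50% and 18.8% for variant PRC1 partners and 72.7% and 27.3% for PRC2 genes. The core share higher and the variant share lower were thus close to those of all genes. Of 10 PRC1 core genes, 4 were higher and 3 lower, with *Pcgf1* at 41.5 and 36.4 TPM against 23.2 and 22.1 TPM (log2 fold change -0.78) and *Bmi1* (PCGF4) higher by 0.94. Of 10 canonical PRC1 genes, 6 were higher and 4 lower. *Phc2*, a polyhomeotic subunit, was at 11.9 and 9.12 TPM against 47.4 and 45.9 TPM, whereas its paralog *Phc1* was at 407 and 395 against 214 and 218 TPM. Of 16 variant PRC1 partners, 8 were higher and 3 lower, *Bcorl1*, a BCOR paralog, by 2.20 and *Kdm2b*, the CpG island reader, at -0.45. Of 11 PRC2 genes, 8 were higher and 3 lower. *Jarid2*, a PRC2.2 subunit, was at 166 and 168 against 369 and 365 TPM, and the methyltransferase gene *Ezh1* at 59.1 and 62.3 against 21.9 and 21.5 TPM. The medians of the core and variant lists, 0.00 and 0.18, were -0.20 and -0.01 after median-of-ratios scaling, and the variant list then had 8 higher and 8 lower, or 8 and 6 after quantile normalization.

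Among imprinted genes, a list made after the values were seen, 16 of 32 (50%) were higher and 8 (25%) lower, against 36.6% and 19.9% of all genes, 8 of the 16 above a log2 fold change of 2. *H19*, a noncoding RNA of the maternal allele (mm9 chr7:149761434-149764048, minus strand), was at 32.7 TPM in both libraries named control EB and at 1006 and 989 TPM in those named mutant EB (log2 fold change 4.93, SE 0.05, adjusted *p* = 1.5e-08). *Igf2*, its neighbour and a growth factor of the paternal allele, was at 4.77 and 4.65 TPM against 207 and 208 TPM. The libraries named mutant ES held far less of both, 43.4 and 41.0 TPM of *H19* and 20.5 and 21.7 TPM of *Igf2*. *Plagl1*, a zinc finger factor, was at 1.00 and 0.718 against 22.4 and 23.6 TPM, and *Peg3* was lower, at 66.7 and 69.8 against 29.6 and 29.2 TPM. The files do not separate alleles, so nothing can be said of imprinting itself.

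The protein-coding genes with the lowest log2 fold changes were *Adm*, *Ndufa4l2* and *Ddx60*, and the first 2 are targets of the hypoxia-inducible factors, which turn on glycolysis and vascular signals in low oxygen. In a list of 38 hypoxia response genes made after seeing this, 32 (84.2%) were lower and 2 higher, against 19.9% and 36.6% of all genes, with a median of -1.47. *Adm*, a vascular peptide hormone (mm9 chr7:117771175-117773331, plus strand), was at 93.8 and 92.7 TPM in the libraries named control EB and at 2.48 and 2.29 TPM in those named mutant EB (log2 fold change -5.23, SE 0.09, adjusted *p* = 4.44e-08). *Bhlhe40*, a transcriptional repressor, was at 189 and 193 TPM against 7.60 and 6.89 TPM, and *Ddit4*, an mTORC1 inhibitor, at 1177 and 1093 against 87.2 and 86.0 TPM. Genes of glycolysis were lower by smaller factors. *Pgk1*, phosphoglycerate kinase, was at 2121 and 2139 TPM against 514 and 507 TPM (log2 fold change -2.06, SE 0.03), and *Pdk1*, which holds pyruvate back from the mitochondria, at 120 and 122 against 23.6 and 20.9 TPM. The members that were higher were *P4ha2* (47.6 and 49.0 against 126 and 118 TPM) and *Pfkfb4*, and the 4 not called were *Slc2a3*, *Car9*, *Pfkp* and *Hif1a*.

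Levels in another line place these genes. In the 5 control EB libraries of the *Pcgf1* line, the libraries named control EB here stood above the highest for 26 of the 38 hypoxia genes and below the lowest for 0. The libraries named mutant EB stood below the lowest for 15 and above the highest for 6. *Ddit4* was at 156 to 606 TPM in those 5 libraries and *Adm* at 0.411 to 35.8 TPM, so for *Adm* the named control EB libraries were outside that range and the named mutant EB libraries inside it. Outside the hypoxia list, 7 further genes were placed the same way. The named control EB libraries were above the highest of the 5 for 5 of them and below the lowest for 1. *Zscan4c* was at 6.37 to 14.7 TPM and *Gata6* at 0.355 to 1.19 TPM in those 5 libraries, under the named control EB levels above. Of the 32 imprinted genes, the named control EB libraries were above for 6, *H19* among them (13.9 to 20.5 TPM there), and below for 11. How many of all genes tested lay outside the range of those 5 libraries was not counted. The counts above therefore have no all-gene share beside them and cannot be judged against one. Line and culture cannot be told apart in this comparison, and the part of culture conditions was not tested.

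**Figure D5:**
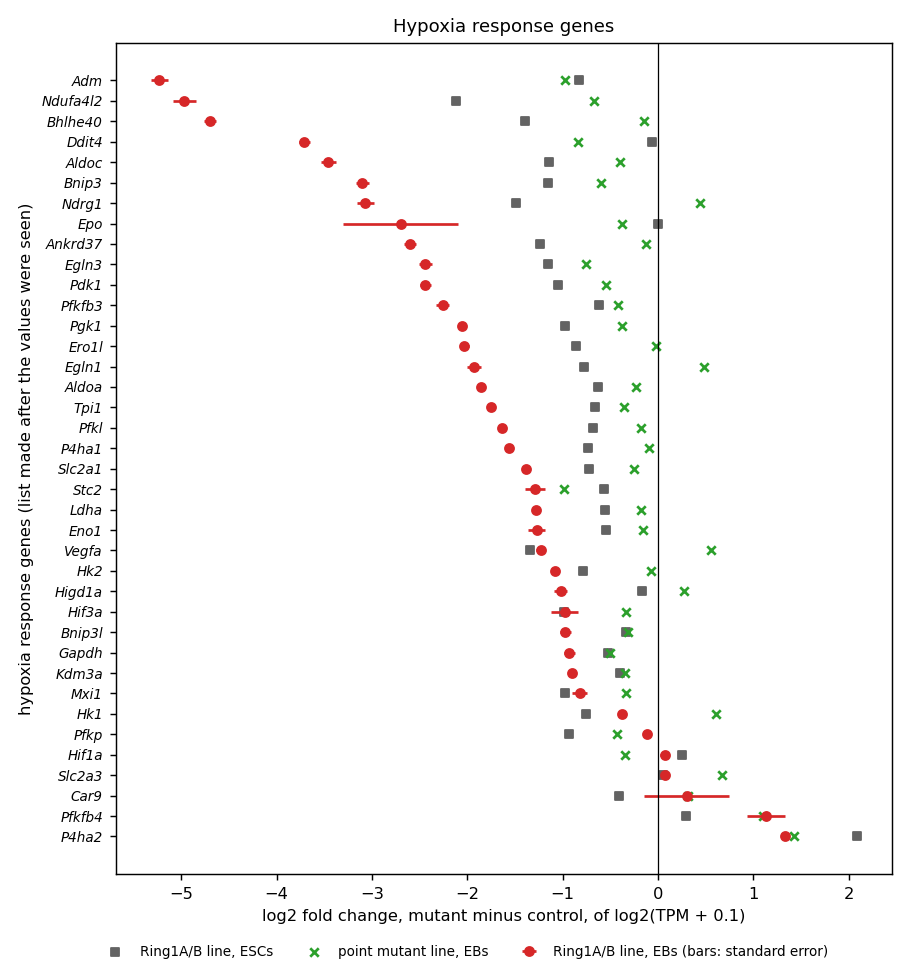
Log2 fold change of log2(TPM + 0.1), mutant minus control by file name, for 38 hypoxia response genes, a list made after the EB values were seen. Circles with standard errors are EBs of the *Ring1A/B* line, squares its ESCs and crosses EBs of the point mutant line; 32 of the 38 circles are called lower, and most lie to the left of the squares and crosses.

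The promoters of *Bnip3*, a mitophagy receptor (334 and 347 against 42.2 and 37.0 TPM), and *Ankrd37*, an ankyrin repeat gene (103 and 95.2 against 15.9 and 16.5 TPM), are shown because they hold the core letters of the hypoxia response element, ACGTG or GCGTG, several times. Matches on either strand are in capitals. CACGTG counts on both strands, and neighbouring matches may overlap. *Bnip3* (chr7:146101140-146101439, minus strand) holds 5 matches and *Ankrd37* (chr8:47085155-47085454, minus strand) holds 4.
Bnip3: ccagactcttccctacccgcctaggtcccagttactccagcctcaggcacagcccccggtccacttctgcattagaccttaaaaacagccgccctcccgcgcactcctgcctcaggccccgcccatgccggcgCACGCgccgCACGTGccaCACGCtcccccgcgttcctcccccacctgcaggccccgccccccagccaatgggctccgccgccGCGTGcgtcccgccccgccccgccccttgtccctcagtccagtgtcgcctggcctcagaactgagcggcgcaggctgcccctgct
Ankrd37: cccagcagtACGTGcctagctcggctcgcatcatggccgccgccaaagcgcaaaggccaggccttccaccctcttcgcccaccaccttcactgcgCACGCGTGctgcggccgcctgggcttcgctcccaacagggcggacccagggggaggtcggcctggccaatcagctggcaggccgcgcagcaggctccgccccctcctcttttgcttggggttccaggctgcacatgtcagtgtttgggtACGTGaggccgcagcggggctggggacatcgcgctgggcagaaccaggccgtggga
At least 1 match stood in 27 of the 32 list members with a promoter window (84.4%) and in 8112 of 14709 promoters of all genes tested (55.1%), and 2 or more in 65.6% against 28.5%. The windows of the list were also richer in CG, with a median of 20.5 against 17, and both searched motifs contain CG. These counts describe the letters and do not show binding. The list was chosen as hypoxia response genes, so a higher share of this motif may come from that choice alone.

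In the ESC-named libraries 5825 genes (28.6%) were higher and 2970 (14.6%) lower in named mutant against named control. The differences themselves were compared in the same fit, in which 3855 genes (18.9%) had a higher and 3224 (15.8%) a lower log2 fold change in EBs than in ESCs. By list, the median in EBs and ESCs was 3.23 and 2.5 for *Hox* genes, 2.67 and 0.83 for endoderm genes, 2.12 and 1.15 for BMP, GDF and Nodal ligand genes and -1.03 and 0.56 for formative epiblast genes. Endoderm genes had a higher log2 fold change in EBs than in ESCs in 16 of 23 and a lower one in 1. *Gata6* was at 8.42 and 8.01 TPM in the libraries named mutant ES, against 67.5 and 68.2 TPM in those named mutant EB (difference of the differences 2.70, adjusted *p* = 0.000407). Hypoxia genes had a lower log2 fold change in EBs than in ESCs in 29 of 38 and a higher one in 2. That list was made after the lowest genes of the EB contrast were seen, so these counts may come in part from that choice. *Vrtn*, a gene of vertebral number, was named after its values were seen. It was at 31.1 and 30.6 TPM in the libraries named control EB against 3.83 and 3.15 TPM in those named mutant EB. The libraries named control ES held 0.243 and 0.184 TPM and those named mutant ES more, at 2.20 and 2.16 TPM.

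The same contrast was set beside that of a line with a RING1A point mutation and a conditional RING1B point mutation (*Ring1A*-pm; *Ring1B*-cpm), which keep the proteins and block their ubiquitin ligase activity after 4-OHT. Names and labels agree there, with 2 libraries a group. Of 21146 genes in a joint fit, 981 (4.64%) had a higher and 554 (2.62%) a lower log2 fold change in the *Ring1A/B* line. With any 1 of the 4 EB libraries of the *Ring1A/B* line left out, these counts were 359 to 478 and 193 to 210. *Hox* genes had medians of 3.23 and 2.60 in the 2 lines, with a higher difference in the *Ring1A/B* line for 1 of 39. Group 1 medians were 1.15 and 0.78, and Group 2 medians 0.98 and 0.95. Lists that stood apart included endoderm genes (2.67 and 0.75, 9 of 23 called higher, 0 lower), naive genes (1.99 and 0.63, 9 of 20 higher, 0 lower) and hypoxia genes (-1.47 and -0.28, 20 of 38 lower, 0 higher). The hypoxia list was made after the lowest genes of the *Ring1A/B* line EB contrast were seen. Its difference between the lines may therefore come in part from that choice.

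Single genes show where the lines parted. *Gata6* was at 3.99 and 3.73 TPM in point mutant line control EBs and at 12.7 and 11.3 TPM after 4-OHT, a difference smaller by 3.52 on the log2 scale (adjusted *p* = 0.000322). *Klf4* was at 37.2 and 65.1 TPM and at 104 and 122 TPM there, so the treated levels were alike in the 2 lines while the control levels were not (difference of the differences 2.57, adjusted *p* = 0.0015). *Pdgfa* gave 19.9 and 20.1 against 82.0 and 61.7 TPM (difference 0.14, adjusted *p* = 0.818). *Tie1*, an endothelial receptor kinase named after its values were seen, was at 2.21 and 2.10 against 46.7 and 45.7 TPM in the *Ring1A/B* line and at 0.626 and 1.01 against 0.683 and 0.666 TPM in the point mutant line. *Adm* was at 14.4 and 27.2 against 8.28 and 12.1 TPM there. The 2 libraries of a group differed more in the point mutant line than in the *Ring1A/B* line for many of these genes, for example *Bhlhe40* at 41.9 and 128 TPM in its control EBs. The lines also differed in level before treatment, and line, allele and library series cannot be told apart.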

How the data were processed

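RNA-seq libraries of the *Ring1A/B* line (8), the point mutant line (8) and the *Pcgf1* line controls (9) were used, of 59 in the series. The authors aligned reads with STAR (version 2.5.2b) to mm9, and the deposited files hold TPM per gene symbol, summing to 1000000 in each library. Per the submitters' processing notes DESeq2 was also used, and it was not used here because it needs counts. TPM keeps no depth, so the depth is unknown and no counting interval is given. The 8 libraries list 6039 to 7201 of 24391 genes at 0.

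Members (the libraries named mutant EB and control EB), gene lists and rules were chosen with earlier results of these data known. Groups follow file names, as set for this comparison. Genes with TPM above 0 in at least 1 library were kept (20344). The test was limma (3.58.1, in R 4.3.3) with a variance trend, applied to log2(TPM + 0.1) with 4 groups of 2 libraries, which share 1 estimate of the spread, and 20344 tests were adjusted by Benjamini-Hochberg (two-sided). Log2 fold changes are on the log2(TPM + 0.1) scale, which understates the change of low genes. A joint fit (16 libraries, 8 groups, 21146 genes) tested differences from the point mutant line. The script was tested on simulated data. Lists are described by counts and medians. Fits were repeated with other pseudocounts, filters, scalings, a replicate block and each library left out. Promoters were matched by symbol for 14709 of 20344 genes, from RefSeq. Gene positions are those of an mm9 annotation. Tables and plots were made in Python 3.11.15 using pandas 2.3.3, numpy 2.4.6 and matplotlib 3.10.9.

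The genes named are the 12 highest and 12 lowest by log2 fold change (called, at 1 TPM or more on average in either group, no overlap), the PRC1 and PRC2 genes, *Klf4*, *Tbx3*, *Pdgfa*, *Sox4* and *Grhl2*, up to 4 called members per direction of each list, and the 5 highest and 5 lowest of each test of differences. Stage and feeder markers, list members not called, hypoxia and imprinted genes, *Bmp4*, *Lefty2*, *Gata4*, *Lama1*, *Col4a1*, *Hoxd13*, *Esrrb*, *Nanog*, *Zfp42*, *Dnmt3b*, *Dux*, *Usp17lc*, *Ddx60*, *Cubn*, *Vrtn* and *Tie1* stand outside this rule and were named after their values were seen. Counts with a log2 fold change past 2 were added after the data were seen.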

Additional observations from a re-analysis of the deposited data

Results flagged for a closer look

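Results in which 2 contrasts differed by a test of the difference itself are listed here as values. Between EBs and ESCs of the *Ring1A/B* line, by file name, 3855 genes had a higher and 3224 a lower mutant minus control difference in EBs. The 5 highest of these differences, on the log2 scale, were *Mir106b* (8.79), *Mir6942* (8.28), *Mir6976* (7.89), *Mir6979* (7.38) and *Mir6930* (7.06). The 5 lowest were *Mir7052* (-8.62), *Mir6955* (-8.25), *Mir6984* (-7.85), *Mir6928* (-7.38) and *Mir1955* (-7.28). All 10 are microRNA genes. The EB log2 fold change of each of the 5 highest lost its call with any 1 of the 4 EB libraries left out (limma adjusted *p* of 0.0732 to 0.0949 for *Mir106b* and 0.175 to 0.226 for *Mir6976*). Of the 5 lowest, all but *Mir6955* lost it with at least 1 of these libraries left out. Between the *Ring1A/B* line and the point mutant line, 981 genes had a higher and 554 a lower difference in EBs. The highest were *Spink1* (6.68), *Mir7666* (5.67), *Dkk1* (5.50), *Mir6351* (5.17) and *Gm15698* (5.00), and the lowest *Mir6907* (-8.53), *Mir6984* (-7.90), *Gm15179* (-5.31), *Mir6928* (-5.17) and *Pth2* (-4.74). Of these, *Spink1*, *Mir6907*, *Mir6984*, *Gm15179*, *Mir6928* and *Pth2* lost the call of their EB log2 fold change in the *Ring1A/B* line with at least 1 EB library left out. *Dkk1*, a secreted WNT inhibitor, was at 0.0673 and 0.0889 TPM in the libraries named control EB and at 4.97 and 4.23 TPM in those named mutant EB, and its point mutant line control EBs differed among themselves, at 2.17 and 0.333 TPM.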

How the results depend on the processing

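The counts of higher and lower genes stayed within 1.5 times under every alternative run, at 6483 to 6673 higher and 3404 to 3595 lower with 1 library left out, and 7193 and 3967 with the 2 EB groups fitted alone. The numbers of the libraries do not pair them (r between deviations of same-numbered libraries -0.038 to 0.048 over 14035 genes), and a replicate block gave 7344 and 3998. Genes past a log2 fold change of 2 numbered 454 higher and 144 lower with a pseudocount of 1, and 906 and 674 after quantile normalization. Against the point mutant line, the 981 higher genes were 1670 with the replicate block and 359 to 478 with any 1 of the 4 EB libraries of the line left out, and the 554 lower genes were 1231 with the block, 856 after median-of-ratios scaling, 1040 after quantile normalization and 193 to 210 with 1 library left out, so these counts are less firm than those within the line. The Group 1 median of 1.15 was 0.80 with a pseudocount of 1, 1.26 with a mean of at least 1 TPM, 0.96 after median-of-ratios scaling and 0.82 after quantile normalization. The Group 2 median of 0.98 was 0.48, 1.05, 0.82 and 0.58 in the same order, 1.00 with only the groups compared and 0.95 to 1.02 with 1 library left out. The Group 3 median of -0.32 was -0.52 after median-of-ratios scaling and -0.73 after quantile normalization. Of 2384 values of 240 named genes under the alternatives, 2231 kept direction and call, 137 lost the call, 12 gained it and 4 changed sign: *Usp7* (-0.17 after median-of-ratios scaling, -0.12 after quantile normalization), *Max* (-0.19) and *Wdr5* (-0.18, both after median-of-ratios scaling). The unknown depth limits what can be said of genes listed at 0.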

Other observations

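Immediate early genes respond within minutes to growth signals and to handling. In the libraries named mutant EB, 11 of 17 (64.7%) were higher and 3 (17.6%) lower, against 36.6% and 19.9% of all genes. Their median log2 fold change was 1.32, at levels far under those of ESCs. *Egr1*, a zinc finger factor, was at 2.11 and 2.13 TPM in the libraries named control EB, at 9.24 and 9.18 TPM in those named mutant EB and at 314 and 323 TPM in those named control ES. *Dusp1*, a phosphatase of MAP kinases, was lower, at 78.8 and 69.8 against 36.9 and 36.6 TPM. In the ESC-named libraries the list had 1 member higher and 8 lower, against 28.6% higher and 14.6% lower of all genes there.

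Cell cycle and stress genes were mixed. Of 7 cyclin-dependent kinase inhibitor genes, 4 (57.1%) were higher and 1 (14.3%) lower, against 36.6% and 19.9% of all genes. *Cdkn1c* (p57) was at 46.9 and 40.5 TPM in the libraries named control EB and at 126 and 122 TPM in those named mutant EB, and *Cdkn1b* (p27) at 66.6 and 69.5 against 25.9 and 27.7 TPM. Of 18 p53 target genes, 11 (61.1%) were higher and 4 (22.2%) lower, against 36.6% and 19.9% of all genes, and 0 had a log2 fold change past 2. After median-of-ratios scaling these counts were 8 and 5. *Pmaip1* (NOXA), a pro-death gene, was at 61.8 and 62.2 against 239 and 222 TPM, while *Bbc3* (PUMA), of the same kind, was at 78.0 and 67.5 against 27.0 and 28.4 TPM. Of 23 cell division genes, 8 (34.8%) were higher and 11 (47.8%) lower with a median of -0.10, against 0.20 for all genes. *Mcm6*, of the replication helicase, was at 391 and 386 against 265 and 252 TPM. Of 11 germ cell specification genes, 6 (54.5%) were higher and 4 (36.4%) lower. *Dppa3* (STELLA) was at 15.7 and 18 against 82.5 and 80.8 TPM, and *Prdm1* (BLIMP1), the factor that starts germ cell fate, at 7.55 and 7.22 against 2.52 and 2.79 TPM.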
